A study of Homo sapiens with 18 samples.

Results

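Human chromosome 19 carries the densest collection of zinc finger genes in the genome, and the genes described here are those whose symbol is ZNF followed by digits only, with at most 1 capital letter at the end. Of 58884 genes in the count tables, 247 met that rule. They were compared with the 264 genes of the same symbol form on other chromosomes and with the 2661 genes of chromosome 19 that have another symbol.

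The cells were T47D, an estrogen receptor positive luminal breast cancer line. The WT cells were labelled T47D AAV and the PARP1 knockout (PARP1 KO) cells T47D JL, so that the genotype and the line cannot be told apart, and whether the knockout line is 1 clone is not given in the sources used here. Each line was exposed for 48 h to DMSO, to niraparib at 10 µmol/L or to olaparib at 10 µmol/L, with 3 poly(A) RNA libraries for each of the 6 groups. Both compounds are inhibitors of PARP1 and PARP2, the enzymes that attach ADP-ribose chains to proteins at DNA breaks. They differ in their targets. The study reports that niraparib favours PARP1 over PARP2 and also binds lanosterol synthase. It reports that olaparib binds PARP1 and PARP2 alike and does not bind lanosterol synthase. The study's methods describe 3 culture dishes per condition for its omics experiments without tying a library to a dish. If each library came from its own dish, the p-values measure the spread between dishes, and otherwise that between libraries. All 18 pairs of libraries within a group differed by more than counting noise (chi-square per gene 3.13 to 19).

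The 18 libraries held between 28890837 and 52251288 counted reads. PARP1 stood at 313 to 369 CPM (reads of a gene per 1000000 counted reads of that library) in the 9 WT libraries and at 22.9 to 27.1 CPM in the 9 PARP1 KO libraries, with no overlap. The luminal markers KRT8, KRT18, KRT19, EPCAM, GATA3, FOXA1, ESR1 and PGR were present in every library, from 118 CPM for ESR1 at its lowest to 4352 CPM for KRT8 at its highest. Of the markers of other cell types, PTPRC, PECAM1, CD3E, KRT5 and KRT14 had at most 6 reads in any library and VIM at most 29. The fibroblast marker COL1A1 was the exception, at 86.3 to 164 CPM.

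Most of these zinc finger genes encode KRAB zinc finger proteins. A row of C2H2 fingers reads the DNA sequence, and the KRAB domain recruits the corepressor TRIM28, which brings the H3K9 methyltransferase SETDB1, heterochromatin protein 1 (HP1) and the nucleosome remodelling and deacetylase complex. The family arose by tandem duplication, which left it in clusters along the chromosome, and many members are known for silencing retrotransposons. A match to a KRAB profile was found in the annotated proteins of 213 members, 33 had none and 1, ZNF781, had no coding transcript. The number of C2H2 fingers ranged from 1 to 39 with a median of 13.

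The promoters are shown here because of the 5 called members with the largest rise with niraparib. These were ranked among members at a mean of at least 1 CPM in the libraries compared. Of the 5, 4 share a promoter word with members of their stretch of the chromosome that were not called up. Members under 1 CPM are left out of such rankings, since some of them had larger fitted changes that rest on few reads. RefSeq promoters (GRCh38.p14, 250 bases before to 50 bases after the start of the transcript) were matched for 216 members. Among 10-letter words held by at least 25 of them, the one with the largest excess over all promoters was TCCAATCAGG, searched for on both strands as itself or as CCTGATTGGA. It occurred in 43 of the 216 promoters (19.9%) and in 107 of all 27305 promoters (0.392%), so that 40.2% of all promoters with the word belonged to these members. The word was picked for this excess, which is therefore a description. The word holds the letters CCAAT, and 46 of its 52 occurrences began 30 to 100 bases before the start. The 6 promoters below are those of these 4 members (ZNF724, ZNF85, ZNF93 and ZNF100), of 1 that fell (ZNF726) and of 1 that did not pass the test (ZNF91), with the word in capitals.
ZNF724, chr19:23250345-23250644, minus strand: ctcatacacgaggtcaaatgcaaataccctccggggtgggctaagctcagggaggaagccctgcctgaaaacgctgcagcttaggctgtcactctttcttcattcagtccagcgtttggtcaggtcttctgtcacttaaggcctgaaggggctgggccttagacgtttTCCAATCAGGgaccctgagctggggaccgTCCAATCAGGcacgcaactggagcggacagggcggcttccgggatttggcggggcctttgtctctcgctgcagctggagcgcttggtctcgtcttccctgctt
ZNF85, chr19:20923001-20923300, plus strand: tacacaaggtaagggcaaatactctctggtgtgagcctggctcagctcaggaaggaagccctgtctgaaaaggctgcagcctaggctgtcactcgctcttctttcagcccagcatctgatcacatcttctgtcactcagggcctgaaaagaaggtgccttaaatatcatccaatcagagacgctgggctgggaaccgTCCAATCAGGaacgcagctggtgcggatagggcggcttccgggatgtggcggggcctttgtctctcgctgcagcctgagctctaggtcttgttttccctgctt
ZNF93, chr19:19900696-19900995, plus strand: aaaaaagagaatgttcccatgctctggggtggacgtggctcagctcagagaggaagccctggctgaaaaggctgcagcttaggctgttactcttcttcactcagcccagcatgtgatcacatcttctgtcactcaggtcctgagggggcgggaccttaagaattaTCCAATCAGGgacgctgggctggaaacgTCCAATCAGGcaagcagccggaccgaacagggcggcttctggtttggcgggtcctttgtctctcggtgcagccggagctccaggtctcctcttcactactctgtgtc
ZNF100, chr19:21767530-21767829, minus strand: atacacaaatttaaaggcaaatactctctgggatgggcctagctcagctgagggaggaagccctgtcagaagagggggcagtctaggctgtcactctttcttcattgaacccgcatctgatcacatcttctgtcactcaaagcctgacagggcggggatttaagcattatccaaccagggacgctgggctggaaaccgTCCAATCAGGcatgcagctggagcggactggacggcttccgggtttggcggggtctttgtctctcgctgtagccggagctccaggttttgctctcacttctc
ZNF726, chr19:23914636-23914935, plus strand: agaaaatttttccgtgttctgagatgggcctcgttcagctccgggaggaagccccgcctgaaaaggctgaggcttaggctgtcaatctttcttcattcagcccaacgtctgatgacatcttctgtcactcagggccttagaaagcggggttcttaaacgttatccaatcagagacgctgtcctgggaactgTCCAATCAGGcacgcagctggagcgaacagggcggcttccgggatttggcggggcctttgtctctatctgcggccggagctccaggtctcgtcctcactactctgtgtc
ZNF91, chr19:23395422-23395721, minus strand: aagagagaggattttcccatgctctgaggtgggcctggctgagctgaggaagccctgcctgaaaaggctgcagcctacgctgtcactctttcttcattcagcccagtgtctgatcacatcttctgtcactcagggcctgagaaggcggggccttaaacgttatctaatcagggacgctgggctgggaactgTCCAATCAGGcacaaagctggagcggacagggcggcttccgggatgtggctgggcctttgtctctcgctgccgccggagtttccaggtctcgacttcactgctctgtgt

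ZNF724 and ZNF93 carry the word on 2 occasions and the other 4 promoters once. Over 280 to 298 aligned bases, the 15 pairs among these 6 promoters were 81% to 87.4% identical. ZNF829, with the largest rise among called members at a mean of 1 CPM or more, has a promoter without the word. All 43 members with the word lay in 3 stretches of the chromosome. These were 3 of the 5 matched members at 2.82 to 2.94 Mb, 14 of 24 at 11.5 to 12.6 Mb and 26 of 29 at 19.7 to 24.1 Mb. None of the 158 matched members elsewhere had it.

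In WT cells with DMSO, 222 of the 247 members had a mean of at least 1 CPM and 111 a mean of at least 10 CPM. The median over all 247 was 8.89 CPM, or 1.68 RPKM (CPM divided by the exon length in kilobases). Over the 222 it was 1.87 RPKM, beside 5.75 RPKM for all genes tested with a mean of at least 1 CPM in these libraries. The highest levels per length were those of ZNF552, at 29 ± 1.4 RPKM (SD, n = 3), and ZNF146, a protein of fingers without a KRAB domain, at 22.1 ± 0.20 RPKM. ZNF787 at 9.37 ± 0.141, ZNF329 at 9.15 ± 0.142, ZNF581 at 8.60 ± 0.485, ZNF83 at 8.46 ± 2.32 and ZNF317 at 7.50 ± 0.149 RPKM came next. From ZNF787 to ZNF317 each gene differed from the next by less than the sum of their SDs, and the order was not tested. ZNF177, ZNF728, ZNF536, ZNF677 and ZNF835 had at most 3 reads in any library.

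Summed over the members, the 3 WT libraries with DMSO held 3121, 2921 and 2954 CPM. With niraparib the sums were 3923, 4316 and 4005 CPM, above every DMSO library, and the mean was 136% of the DMSO mean. With olaparib they were 3178, 3110 and 3035 CPM, which overlapped the DMSO libraries. The 9 PARP1 KO libraries lay between 2791 and 3024 CPM, with means of 2949 ± 97.3 CPM for DMSO, 2851 ± 76 for niraparib and 2934 ± 52.5 for olaparib (SD, n = 3 each). A sum of this kind is relative to all counted reads, so that more RNA per cell from these genes and less from the others cannot be told apart.

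**Figure D1:**
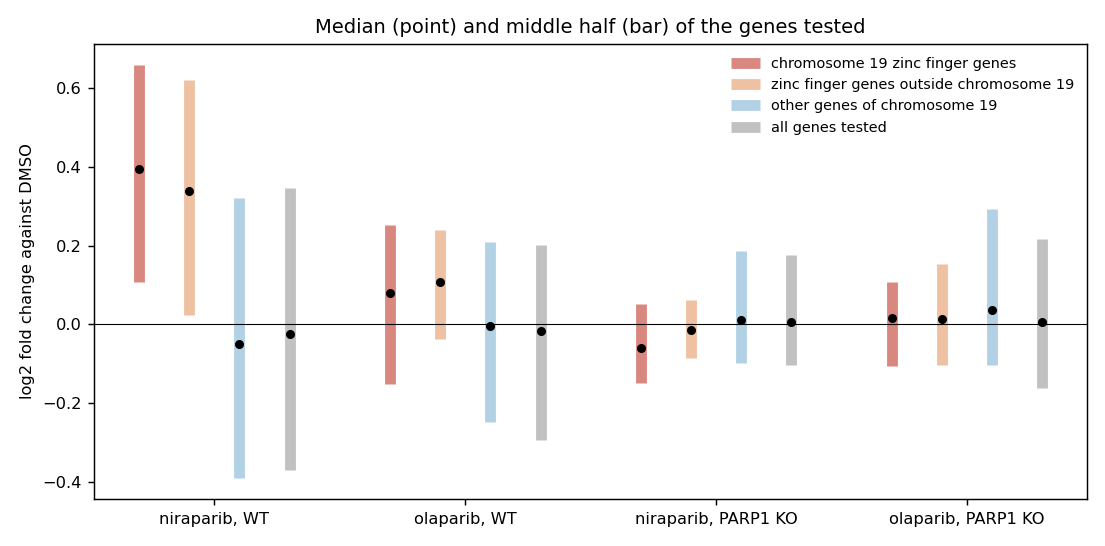
Log2 fold change against DMSO (vertical axis) of 4 sets of genes in each drug and genotype. Points are medians and bars the range from the lower to the upper quartile of the genes tested in each set. In WT cells with niraparib the median of the chromosome 19 zinc finger genes was 0.39 and that of all genes -0.02, and in PARP1 KO cells all 4 medians lay near 0.

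The first comparison asked how niraparib changed these genes in WT cells. Calls rest on edgeR's quasi-likelihood test over all genes of the WT libraries with Benjamini-Hochberg adjustment. A gene was called where its adjusted p was below 0.05 and its change over 1.5-fold. Of 241 members tested, 67 rose and 2 fell, that is 27.8% and 0.83%. Among all 22446 genes tested, 8.1% were called up and 5.72% down. The members' median log2 fold change was 0.39 (quartiles 0.11 and 0.66) beside -0.02 for all genes, and 82.2% of the members had a positive value beside 48.1% of all genes. All 3 niraparib libraries lay above all 3 DMSO libraries for 173 of the 241 members, where 30.2% of all genes tested showed such a separation.

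Of the zinc finger genes on other chromosomes, the 252 tested gave values of similar size. Of these 66 rose and 3 fell, with a median of 0.34. The other genes of chromosome 19 showed 92 called up and 78 called down of 1276, with a median of -0.05. All genes tested with a mean of at least 1 CPM in WT DMSO were also put in 5 near-equal bins by exon length. Their median log2 fold changes ranged from -0.06 to 0.00072, and in 5 bins by level from -0.12 to 0.10. Genes below 1 CPM were left out of these bins.

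ZNF829, a KRAB protein with 9 fingers (chr19:36888124-36916291, minus strand, GRCh38), showed the largest rise among members at 1 CPM or more. Its levels were 9.97, 12.5 and 11.9 CPM with DMSO and 38.6, 43.05 and 41.4 CPM with niraparib in WT cells. The groups did not overlap, and the log2 fold change was 1.74 ± 0.08 (SE, adjusted p = 2.3e-13). With olaparib it stood between these groups, at 19, 19.05 and 17.3 CPM. All 9 PARP1 KO libraries lay between 10.9 and 14.8 CPM.

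The next 4 all lay in the stretch at 19.7 to 24.1 Mb (chromosome band 19p12), with other members between them. All are KRAB genes with 11 to 16 fingers. ZNF724 went from 2.18, 2.99 and 2.95 CPM to 8.38, 10.5 and 8.81 CPM, a log2 fold change of 1.66 ± 0.15 (adjusted p = 1.3e-08). An overlapping gene read in the same direction covers 44.8% of its exon bases, where reads cannot be assigned, so that its level is uncertain. ZNF85 went from 8.29, 7.29 and 8.64 CPM to 21.8, 25.7 and 24.3 CPM, a log2 fold change of 1.48 ± 0.09 (adjusted p = 1.4e-11). For each of these genes the lowest niraparib library was over the highest DMSO library.

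ZNF93, known for silencing LINE-1 elements of the L1PA families, went from 9.94, 9.45 and 11.3 CPM to 27.9, 27.3 and 27.2 CPM (log2 fold change 1.33 ± 0.08, adjusted p = 2.3e-11). ZNF100 went from 8.52, 9.70 and 10.7 CPM to 24.4, 27.8 and 25.5 CPM (1.33 ± 0.08, adjusted p = 3.5e-11). ZNF91, which is known for silencing SVA elements and lies in the same stretch, gave 25.7, 22.8 and 24.2 CPM with DMSO and 22.5, 24.3 and 24.2 CPM with niraparib. Its groups overlapped, and its log2 fold change was -0.12 ± 0.07 (adjusted p = 0.17). The 3 genes share the promoter word shown above, and their promoters were 83% to 86.1% identical.

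Of the 2 members that fell, ZNF726 lies in the same stretch. Its levels were 13.3, 9.28 and 10.3 CPM with DMSO and 5.48, 7.58 and 6.59 CPM with niraparib (log2 fold change -0.82 ± 0.13, adjusted p = 2e-05). ZNF587, which with its near copy ZNF417 is known for silencing HERV-K, fell from 48.0, 39.2 and 42.0 CPM to 27.95, 31.6 and 31.2 CPM (-0.60 ± 0.07, adjusted p = 5.2e-07). Leaving out either WT DMSO replicate 1 or WT niraparib replicate 1 put ZNF587 under 1.5-fold, at -0.52 and -0.56.

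**Figure D2:**
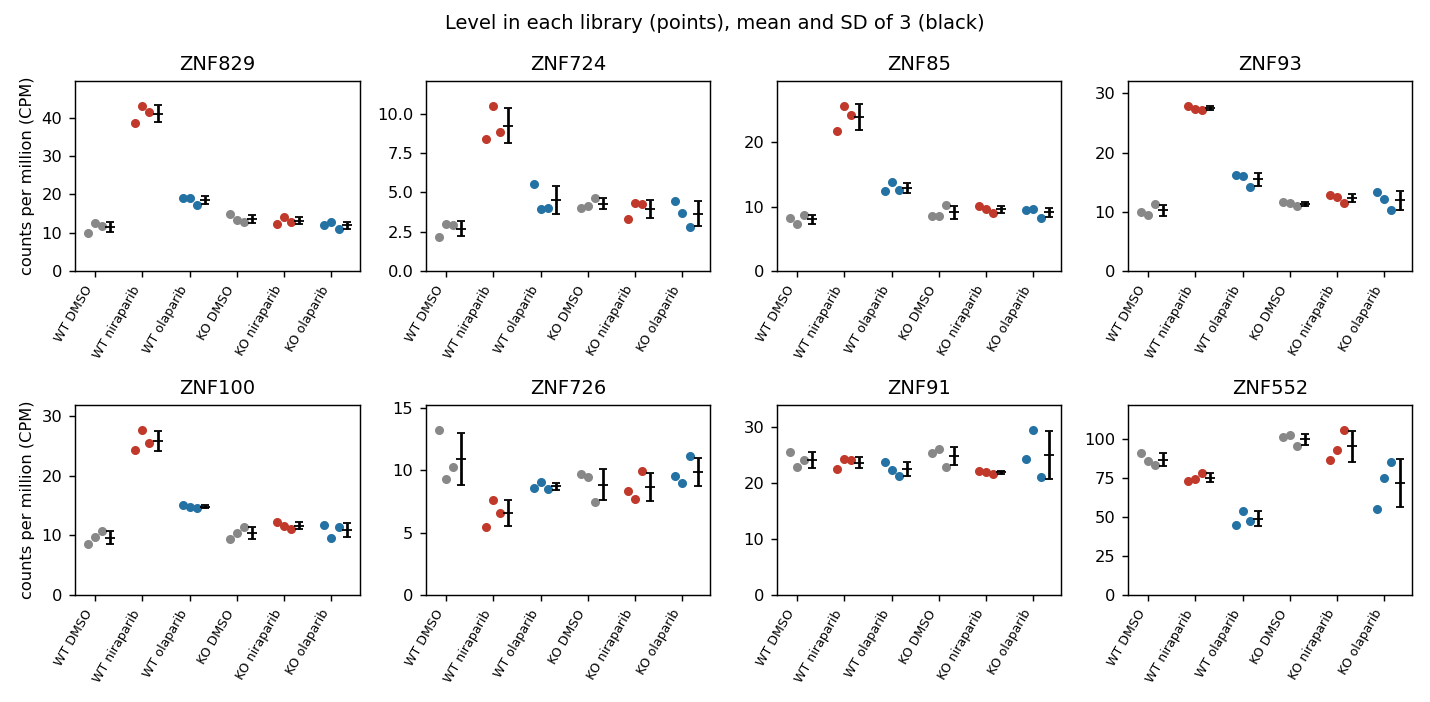
CPM (vertical axis, starting at 0) of 8 members in each of the 18 libraries, in 6 groups of 3, with the mean and SD in black. ZNF829, ZNF724, ZNF85, ZNF93 and ZNF100 stood highest in the 3 WT niraparib libraries, ZNF726 was lower there than in every WT DMSO and WT olaparib library, ZNF91 overlapped between WT DMSO and WT niraparib, and ZNF552 was lowest in the WT olaparib libraries.

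Of the 10 members with the highest RPKM, 2 rose with niraparib in WT cells. ZNF317 went from 37.6, 38.7 and 37.3 CPM to 79.5, 82.8 and 76.1 CPM (log2 fold change 0.97 ± 0.05, adjusted p = 3.1e-12), and ZNF428 from 9.14, 10.7 and 9.83 CPM to 18.1, 18.4 and 18 CPM (0.78 ± 0.08). The other 8 were not called. Of these, ZNF787 (0.47 ± 0.05), ZNF274 (0.49 ± 0.06), ZNF146 (0.26 ± 0.05) and ZNF552 (-0.30 ± 0.06) had adjusted p-values below 0.05 with changes under 1.5-fold. ZNF83 was the least even of them, at 89.3, 55.5 and 58.9 CPM with DMSO and 38.8, 64.4 and 35.6 CPM with niraparib (-0.64 ± 0.28, adjusted p = 0.13). Without WT niraparib replicate 2 it was called, at -0.95 (adjusted p = 0.028).

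Members with known functions outside retrotransposon silencing were spread over the same range. ZNF473 (ZFP100), which takes part in the processing of histone pre-mRNA, went from 17.2, 18.1 and 18.8 CPM to 38.7, 37.2 and 36.5 CPM (0.96 ± 0.07, adjusted p = 1.2e-10). ZNF420 (APAK), known as a p53 inhibitor, went from 10.3, 10.5 and 10.6 CPM to 21.1, 22.9 and 21.8 CPM (0.97 ± 0.08), and ZNF350 (ZBRK1), a partner of BRCA1, from 9.67, 10.3 and 10.3 CPM to 17.7, 18.1 and 16.8 CPM (0.70 ± 0.08). ZNF331 rose by 0.70 ± 0.16. These 4 were called, with no overlap between the groups. ZNF331 was under 1.5-fold without WT niraparib replicate 2 (0.47).

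The others of known function were not called. ZNF274, which brings SETDB1 to the 3′ ends of zinc finger genes, stood at 62.8, 57.4 and 55.5 CPM with DMSO and 81.8, 95.6 and 84.9 CPM with niraparib, a separation without overlap under 1.5-fold. ZNF304 (0.53 ± 0.06), ZNF121 (0.52 ± 0.07, and called at 0.59 without WT niraparib replicate 1), ZNF675 (0.37 ± 0.08), ZNF382 (0.34 ± 0.10) and ZNF568 (0.27 ± 0.08) had adjusted p-values of 0.011 or less. ZNF224 (-0.05 ± 0.16, adjusted p = 0.84) and ZNF417 (-0.0044 ± 0.11, adjusted p = 0.98) did not pass the test, and a change of either in one direction was not detectable against their spread.

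The members were then divided by features that the choice of genes had not used. With a KRAB match, 63 of 209 tested members rose (30.1%, median 0.40), and without one 4 of 31 rose (12.9%, median 0.20). By number of fingers the medians were 0.37 for up to 9 fingers, 0.41 for 10 to 12, 0.35 for 13 to 15 and 0.42 for 16 and more. The 222 members at 1 CPM or more in WT DMSO were also divided by that level, which is itself a part of the fold change, and the 25 below 1 CPM were left out. Of the 74 with the lowest levels 26 rose, of the next 74 24 and of the 74 with the highest 13, with medians of 0.42, 0.40 and 0.31. With the promoter word 14 of 43 rose (32.6%, median 0.41), and without it 44 of 168 (26.2%, median 0.37). These are descriptions, and no difference between the divisions was tested.

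Along the chromosome, members whose starts lay at most 1000000 bases apart formed 16 position groups. The 7 groups with 15 members or more had medians between 0.34 and 0.44. Of these the stretch at 19.7 to 24.1 Mb had 14 of 36 members called up and 1 down, the stretch at 36.2 to 37.8 Mb 9 of 27 up, and the distal stretch at 55.5 to 58.5 Mb 10 of 58 up and 1 down. Genes with other symbols that lay between the members gave medians of -0.24, -0.31 and -0.02 in these 3 stretches, and from -0.31 to 0.26 over all 7 groups.

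**Figure D3:**
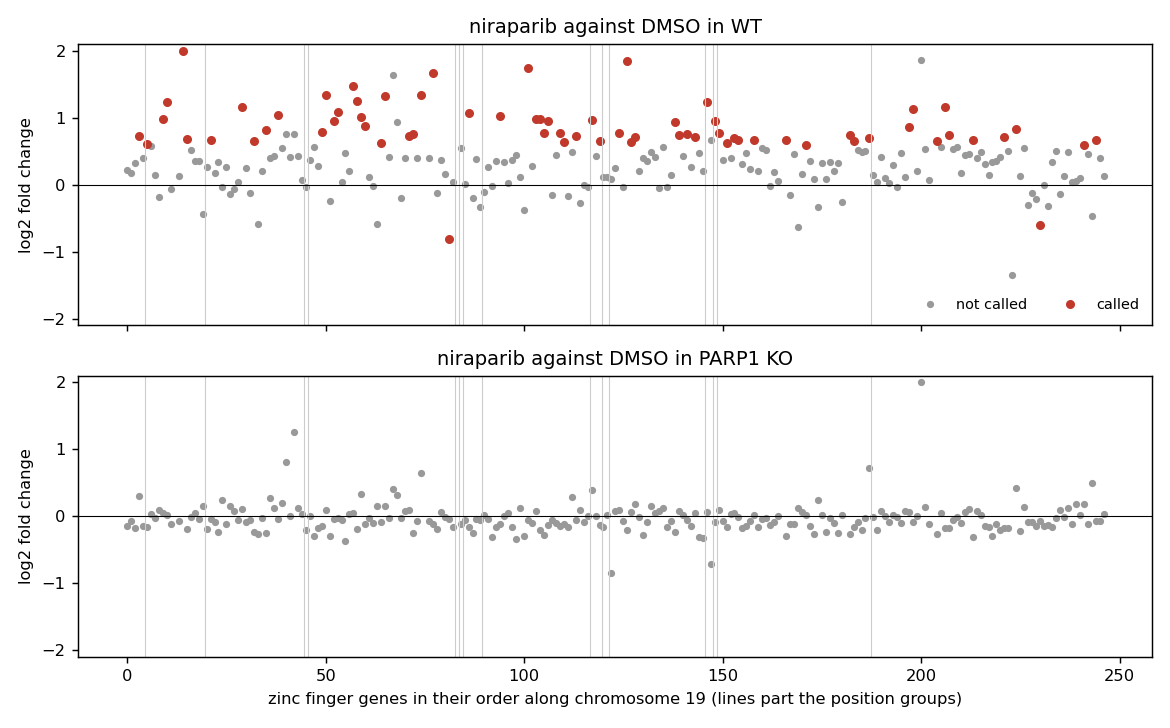
Log2 fold change of niraparib against DMSO (vertical axis, values above 2 drawn at 2) for the members in their order along chromosome 19, in WT cells (top) and PARP1 KO cells (bottom). Red points are called, grey points are not, and vertical lines part the 16 position groups. In WT cells 67 called members lay above 0 and 2 below it, and in PARP1 KO cells none was called.

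Niraparib in PARP1 KO cells gave no called member among 239 tested, where 0.0136% of all genes were called up (3 of 22037, and none down). By edgeR, 36 members (15.1%) had an unadjusted p below 0.05, beside 9.14% of all genes. DESeq2 called 1 member, ZNF331. The median log2 fold change was -0.06 (quartiles -0.15 and 0.05), beside 0.01 for all genes. The 67 members that rose in WT cells included 66 tested here. Their median was -0.06, with 26 above 0 and 40 below, beside 0.77 in WT cells. Their highest value belonged to ZNF331, which stood at 12.1, 12 and 8.62 CPM with DMSO and 15.3, 16.5 and 22.4 CPM with niraparib in PARP1 KO cells. Its log2 fold change there was 0.73 ± 0.19 (adjusted p = 0.28 by edgeR) beside 0.70 ± 0.16 in WT cells. DESeq2 gave ZNF331 0.72 with an adjusted p of 0.0019 in PARP1 KO cells, and the interaction of genotype and niraparib was 0.02 ± 0.29 (adjusted p = 0.99). ZNF331 is named here because its values were seen to differ from those of the other risers.

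The interaction of genotype and drug, fitted over all 18 libraries, tested whether the change in PARP1 KO cells differed from that in WT cells. A negative value stands for a change that was smaller, or more negative, in PARP1 KO cells. For niraparib, 73 of 241 members were called negative and 1 positive, with a median of -0.42. Among all 24675 genes tested, 5.2% were called negative and 3.68% positive, with a median of 0.03. The zinc finger genes on other chromosomes gave 60 of 252 negative (23.8%), with a median of -0.36. The interaction of ZNF829 was -1.80 ± 0.12 (adjusted p = 6e-14), that of ZNF724 -1.78 ± 0.23, that of ZNF430 -1.45 ± 0.14 and that of ZNF85 -1.43 ± 0.14. ZNF430, a KRAB gene beside ZNF85, had gone from 7.86, 7.06 and 7.97 CPM to 19.1, 20.3 and 18.6 CPM with niraparib in WT cells. Its PARP1 KO libraries stood at 8.38, 8.92 and 8.86 CPM with DMSO and at 7.27, 8.63 and 7.21 CPM with niraparib. ZNF460 (-1.34 ± 0.44, adjusted p = 0.045) was at the limit and lost the call without any of 10 of the 12 libraries compared. The positive interaction was that of ZNF726 (0.77 ± 0.18, adjusted p = 0.0019), at 9.67, 9.44 and 7.45 CPM with DMSO and 8.31, 7.70 and 9.92 CPM with niraparib in PARP1 KO cells.

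The genotypes were also compared without drug. Of 241 members 1 was called, ZNF724, which was higher in PARP1 KO cells, where 0.0608% of all genes were called up. Its DMSO levels were 3.99, 4.15 and 4.65 CPM in PARP1 KO cells and 2.18, 2.99 and 2.95 CPM in WT cells (0.65 ± 0.17, adjusted p = 0.039). The libraries did not overlap, but leaving out any single one of these 6 libraries ended the call. The median over the members was -0.01.

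The next comparison asked what olaparib did to the same genes in WT cells. Of 241 members tested, 11 rose (4.56%) and 7 fell (2.90%), where 2.06% of all genes were called up and 1.98% down. The median was 0.08 beside -0.02 for all genes, and 8 of 252 zinc finger genes on other chromosomes rose and 5 fell. Among the members that rose were the KRAB genes ZNF699, ZNF578, ZNF724 and ZNF442. ZNF699 stood at 3.24, 3.25 and 2.82 CPM with DMSO and 5.89, 5.09 and 5.78 CPM with olaparib (0.84 ± 0.13, adjusted p = 6.5e-05). With niraparib it stood higher, at 7.73, 8.33 and 7.36 CPM. ZNF578 changed by 0.72 ± 0.14, ZNF724 by 0.72 ± 0.16 and ZNF442 by 0.69 ± 0.13. ZNF724 was under 1.5-fold without WT olaparib replicate 1 (0.54).

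ZNF296, which has no KRAB match, differed from these in the order of the drugs. It stood at 5.32, 5.53 and 4.90 CPM with DMSO and 11.3, 8.46 and 8.52 CPM with olaparib (0.84 ± 0.13, adjusted p = 6.4e-05), and at 5.95, 7.33 and 6.07 CPM with niraparib (0.20 ± 0.13, adjusted p = 0.24). Its PARP1 KO libraries stood at 7.0, 5.61 and 5.51 CPM with DMSO and 6.79, 5.85 and 5.98 CPM with olaparib.

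The members that fell with olaparib included 3 neighbours on the long arm. ZNF552, the member with the highest level per length, stood at 91.2, 85.9 and 83.3 CPM with DMSO and 45.1, 54.1 and 47.5 CPM with olaparib in WT cells (-0.83 ± 0.06, adjusted p = 5.6e-09). With niraparib it stood between, at 72.9, 74.3 and 78.5 CPM. ZNF587B stood at 12.3, 8.02 and 10.2 CPM with DMSO, at 4.73, 4.96 and 3.80 CPM with olaparib (-1.17 ± 0.16, adjusted p = 9e-05) and at 7.95, 11.7 and 10.0 CPM with niraparib. ZNF814 stood at 7.59, 6.43 and 5.69 CPM with DMSO and 3.18, 3.10 and 3.80 CPM with olaparib (-0.97 ± 0.14, adjusted p = 3.4e-05).

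The 8 consecutive members from ZNF776 to ZNF418 (chr19:57746815-57935393, GRCh38) all had negative values with olaparib in WT cells, with a median of -0.53. Of these 3 were called, and 7 had an adjusted p below 0.05, beside 1.98% of all genes called down and 7.77% that were lower at this adjusted p alone. Among all genes 47.7% had a positive value. In PARP1 KO cells all 8 were negative again, with a median of -0.29 and 1 called, where 0.336% of all genes were called down and 50.9% were positive. With niraparib in WT cells 6 were negative and 1, ZNF587, was called down, with a median of -0.16. Of all genes there 5.72% were called down and 48.1% were positive. ZNF586, one of the 8, was at 0.54 ± 0.14. With niraparib in PARP1 KO cells 7 were negative, with a median of -0.11 and none called, where no gene at all was called down and 51.3% were positive. Of 5 other genes in this block, 2 could be tested. Both were negative with olaparib and with niraparib in WT cells, with 1 called down for each drug, and 1 of the 2 was negative with each drug in PARP1 KO cells. The block was delimited after its values were seen, and its edges are not sharp. With olaparib the nearby ZNF551 was at -0.44 ± 0.11 in WT cells (adjusted p = 0.0072) and at -0.51 ± 0.17 in PARP1 KO cells (adjusted p = 0.097), while ZNF671 and ZNF256, next to the block on either side, were at 0.15 ± 0.14 and 0.33 ± 0.08 in WT cells. ZNF154 was at -1.995 ± 1.16 there (adjusted p = 0.26), with too few reads in PARP1 KO cells for a test. Near copies make single values here uncertain. Of the windows of 50 exon bases, 39.1% of those of ZNF587 occur unchanged in another member, 32.4% of those of ZNF417, 22.1% of ZNF814, 16.6% of ZNF552 and 12.9% of ZNF587B, beside a median of 0.717% over all members. ZNF586 and ZNF587B also share exon bases.

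**Figure D4:**
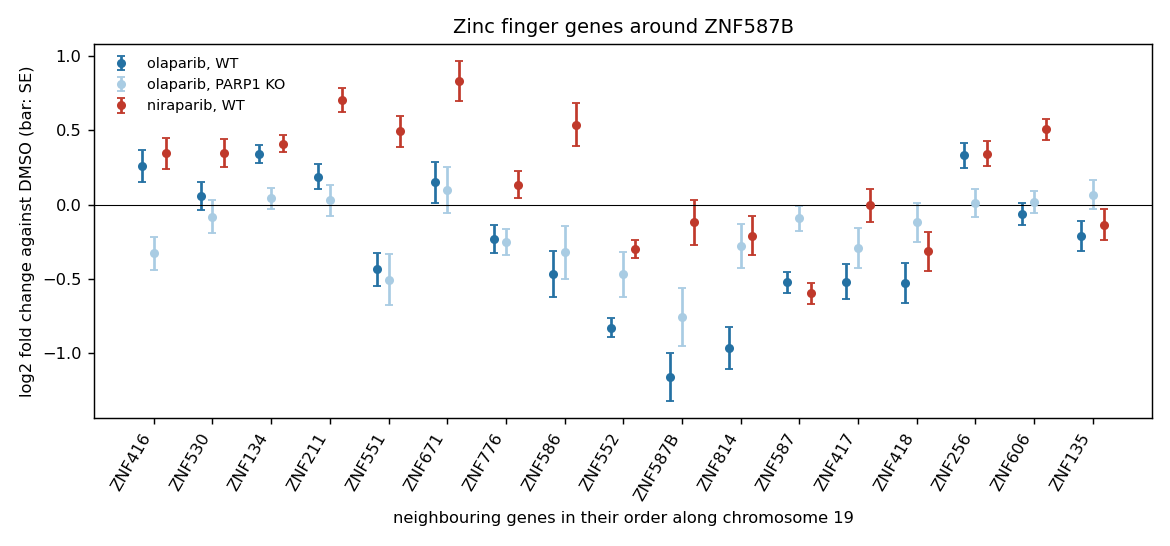
Log2 fold change against DMSO (vertical axis, bars SE) of the members around ZNF587B in their order along the chromosome, for olaparib in WT cells, olaparib in PARP1 KO cells and niraparib in WT cells. The 8 members from ZNF776 to ZNF418 lay below 0 with olaparib in both genotypes. Outside them ZNF551, ZNF606 and ZNF135 also lay below 0 with olaparib in WT cells, and ZNF154, which was not tested in PARP1 KO cells, is not drawn.

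Other members that fell with olaparib lie elsewhere and at lower levels. ZNF781 stood at 1.16, 1.68 and 2.45 CPM with DMSO and 0.594, 0.781 and 0.660 CPM with olaparib (-1.39 ± 0.27, adjusted p = 0.00087). In PARP1 KO cells it stood at 1.91, 1.52 and 1.62 CPM with DMSO and 1.01, 1.05 and 1.18 CPM with olaparib (-0.64 ± 0.22, adjusted p = 0.077), again with no overlap. ZNF493 changed by -1.03 ± 0.18 and ZNF345 by -0.84 ± 0.23 in WT cells, with -0.03 ± 0.30 and -0.38 ± 0.25 in PARP1 KO cells. The call of ZNF345 was lost without WT olaparib replicate 1, WT olaparib replicate 3 or WT DMSO replicate 3.

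Olaparib in PARP1 KO cells gave 1 called member of 239, ZNF587B, which fell, where 0.336% of all genes were called down. Its levels were 12.5, 12.7 and 9.76 CPM with DMSO and 4.88, 7.83 and 7.93 CPM with olaparib (-0.76 ± 0.20, adjusted p = 0.041). Without PARP1 KO olaparib replicate 1 its change was -0.57, under 1.5-fold, and the adjusted p rose to 0.066, 0.11 and 0.13 without PARP1 KO olaparib replicate 2, PARP1 KO DMSO replicate 1 and PARP1 KO DMSO replicate 2. The median over the members was 0.02. All 7 members that fell with olaparib in WT cells were below 0 in PARP1 KO cells, with a median of -0.38 beside -0.97, and of the 11 that rose in WT cells 9 were above 0, with a median of 0.08 beside 0.69. ZNF552 in PARP1 KO cells gave 102, 103 and 95.7 CPM with DMSO and 55.2, 74.9 and 85.7 CPM with olaparib, no overlap and a spread that left the adjusted p at 0.12.

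The interaction of genotype and olaparib was called for 6 of 241 members, all negative, where 0.381% of all genes were called negative. They were ZNF724 (-0.92 ± 0.23), ZNF829 (-0.85 ± 0.12), ZNF296 (-0.79 ± 0.19), ZNF430 (-0.73 ± 0.14), ZNF85 (-0.67 ± 0.14) and ZNF416 (-0.59 ± 0.15), the last of which is named outside the rule for its small count. Leaving out 1 library gave counts from 3, without PARP1 KO olaparib replicate 2 or WT olaparib replicate 1, to 11, without PARP1 KO olaparib replicate 1. ZNF724 lost this call without any of 6 of the 12 libraries compared, ZNF296 without any of 3 (PARP1 KO olaparib replicate 2, PARP1 KO DMSO replicate 1 and WT olaparib replicate 1) and ZNF85 without PARP1 KO DMSO replicate 3 (-0.57, under 1.5-fold). For the members that fell with olaparib in WT cells the interaction was not called. It was 0.36 ± 0.17 for ZNF552 (adjusted p = 0.34), 0.41 ± 0.31 for ZNF587B (adjusted p = 0.56) and 0.69 ± 0.21 for ZNF814 (adjusted p = 0.066), so that a difference between the genotypes was not detectable for them.

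The drugs were also compared with each other at the same dose and time. Niraparib, a carboxamide of indazole, and olaparib, a phthalazinone, bind the same catalytic pocket of PARP1. In WT cells 46 of 241 members were higher with niraparib than with olaparib and 1 was lower, where 5.62% of all genes were called higher and 3.33% lower. The median was 0.33 beside 0.02 for all genes. The largest difference among called members at 1 CPM or more was that of ZNF583, a KRAB gene with 12 fingers, which stood at 8.45, 10.5 and 10.2 CPM with niraparib and 3.05, 3.23 and 2.52 CPM with olaparib (1.63 ± 0.15, adjusted p = 1.6e-08). DMSO libraries lay between, at 3.30, 4.57 and 4.51 CPM.

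ZNF763 (1.47 ± 0.26), ZNF546 (1.11 ± 0.23), ZNF781 (1.11 ± 0.28) and ZNF235 (1.09 ± 0.16) followed. An overlapping gene read in the same direction covers 48.2% of the exon bases of ZNF763. The lower member was ZNF296 (-0.64 ± 0.13, adjusted p = 0.00038), which was under 1.5-fold without WT olaparib replicate 1 (-0.49). For ZNF91 the difference between the drugs was -0.02 ± 0.07 (adjusted p = 0.88, 95% interval from the normal distribution -0.15 to 0.12) and for ZNF578 -0.06 ± 0.14 (adjusted p = 0.79, -0.34 to 0.21). In PARP1 KO cells 1 of 239 members was called higher with niraparib, ZNF781 (0.74 ± 0.22, adjusted p = 0.035), and 1 lower, ZNF333 (-0.65 ± 0.13, adjusted p = 0.0027), where 0.622% and 0.449% of all genes were called. ZNF333, a gene with 10 fingers, stood at 5.95, 5.24 and 7.09 CPM with niraparib, at 9.05, 8.66 and 10.7 CPM with olaparib and at 7.79, 7.33 and 5.88 CPM with DMSO. Without PARP1 KO niraparib replicate 2 neither was called, with ZNF333 at -0.55 and ZNF781 at an adjusted p of 0.097. ZNF333 was also under 1.5-fold without PARP1 KO olaparib replicate 3 (-0.56), and ZNF781 had an adjusted p of 0.1 without PARP1 KO olaparib replicate 1, PARP1 KO olaparib replicate 2 or PARP1 KO niraparib replicate 1.

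The corepressor machinery of the KRAB proteins was followed in 18 genes. With niraparib in WT cells 2 of them rose and 2 fell, beside 8.1% of all genes called up and 5.72% called down. At an adjusted p below 0.05 with no limit on the fold, 8 were higher and 8 lower, where 38% of all genes passed in either direction. These shares are not matched for level. All 18 stood at 10.9 CPM or more in every library, while 13642 of the 22446 genes tested reached a mean of 1 CPM. The maintenance methyltransferase DNMT1 (0.60 ± 0.05) and its partner UHRF1 (0.59 ± 0.06) rose, and the HP1 gene CBX5 (-0.68 ± 0.05) and the remodeller CHD4 (-0.70 ± 0.08) fell. TRIM28, the corepressor itself, had a value of 0.18 ± 0.04 (adjusted p = 0.0022) and SETDB1 0.25 ± 0.05 (adjusted p = 0.00029), both under 1.5-fold. A second HP1 gene, CBX3, was at -0.58 ± 0.05 (adjusted p = 3.8e-09), just under 1.5-fold, and is named after its value was seen. The median of 0.03 over the 18 thus lies between genes that were higher and genes that were lower. In PARP1 KO cells none of the 18 was called with niraparib, and the interaction was called for CBX5 (0.60) and UHRF1 (-0.70), 1 in each direction, where 3.68% of all genes were positive and 5.2% negative. At an adjusted p below 0.05 alone 6 interactions were positive, that of CBX3 (0.45) among them, and 6 negative, where 22.9% of all genes passed. With olaparib none was called in either genotype, and at an adjusted p below 0.05 alone 2 were higher and 4 lower in WT cells and 1 each in PARP1 KO cells, where 19% and 8.29% of all genes passed. Whether these genes had a part in the changes of the zinc finger genes was not tested.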

How the data were processed

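Poly(A) RNA of T47D WT and PARP1 KO cells was sequenced in 18 libraries. The authors trimmed the reads with Trimmomatic, aligned them with STAR, marked PCR duplicates with Picard and counted reads per gene with featureCounts 2.0.0 on the exons of Ensembl release 96 (GRCh38). The deposited values were raw whole-number counts per gene, on the reverse strand and for primary alignments, without normalisation. The methods speak of identifying and quantifying duplicates while the deposited files are named as deduplicated, so that whether duplicates were removed before counting is uncertain. If they were, highly expressed genes would be undercounted relative to others. Per the file headers no option for reads overlapping several genes was set, so that reads on exon bases shared by genes of one strand were left out. Reads of near-identical members were counted at 1 place, which can exchange reads between copies. Unique molecular identifiers are not mentioned in the sources used here.

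Symbols for 58472 of the 58884 gene identifiers came from a table of gene names. The members and all gene lists were chosen with earlier results of these data known. CPM used each library's total, and RPKM the exon length in the count tables. Tests were run in R 4.3.3 with edgeR 4.0.16 (TMM factors, robust quasi-likelihood F-test) on the 9 libraries of a genotype, or on all 18 for interactions and for the genotypes with DMSO, for genes whose counts there summed to more than 10. Errors of log2 fold changes are standard errors, the fold change divided by the root of F. The script was tested on simulated data. A call needed a Benjamini-Hochberg adjusted p below 0.05 over all genes and a change over 1.5-fold. The study's methods name DESeq2, which was run as an alternative (1.42.0).

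Members were named by a rule. Per comparison it took up to 5 called members per direction, ranked by size of change, with a mean of at least 1 CPM and, outside the interactions, no overlap between the libraries compared. It added the 10 highest RPKM values in WT DMSO, a list of 16 members of known function, and the corepressor genes that were called with TRIM28 and SETDB1. KRAB matches came from a profile built on 126 members (E below 0.001) and fingers from a C2H2 pattern, both in GENCODE proteins. Promoters came from the RefSeq table of GRCh38.p14. Alternatives were RLE size factors, filterByExpr, no filter, DESeq2, a replicate block, other thresholds, other sets of libraries in the fit and leaving out each library.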

Additional observations from a re-analysis of the deposited data

Results flagged for a closer look

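The interaction of genotype with niraparib was called for 74 of 241 members, 73 of them negative (30.3%) beside 5.2% of all genes called negative and 3.68% positive, so that the change with niraparib differed between PARP1 KO and WT cells by a test of the difference itself. The zinc finger genes on other chromosomes gave 60 of 252 negative (23.8%) and 5 positive, with a median of -0.36 beside -0.42 for the members, and the difference between these sets was not tested. Of the named members, the interaction on the log2 scale was -1.80 for ZNF829, -1.78 for ZNF724, -1.45 for ZNF430, -1.43 for ZNF85, -1.34 for ZNF460, -1.24 for ZNF93, -1.23 for ZNF699, -1.23 for ZNF583 and -1.18 for ZNF100. It was -1.07 for ZNF442, -1.06 for ZNF763, -1.05 for ZNF473, -0.97 for ZNF578, -0.94 for ZNF317, -0.90 for ZNF420, -0.69 for ZNF428, -0.67 for ZNF235, -0.66 for ZNF350 and -0.60 for ZNF304. The opposite sign was found for ZNF726, at 0.77.

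The interaction of genotype with olaparib was called for 6 of 241 members (2.49%), all negative, beside 0.381% of all genes called negative. It was -0.92 for ZNF724, -0.85 for ZNF829, -0.79 for ZNF296, -0.73 for ZNF430, -0.67 for ZNF85 and -0.59 for ZNF416.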

How the results depend on the processing

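With adjusted p below 0.05 alone, members called numbered 142 for niraparib (58.9% beside 38% of all genes) and 79 for olaparib (32.8% beside 19%) against DMSO in WT cells, and 133 for niraparib against olaparib there (55.2% beside 32.2%). They numbered 7 for olaparib against DMSO (2.93% beside 8.29%) and 14 for niraparib against olaparib (5.86% beside 10%) in PARP1 KO cells, 116 and 13 for the niraparib and olaparib interactions (48.1% beside 22.9%, 5.39% beside 2.27%) and 2 for the genotypes with DMSO (0.83% beside 1.39%). With an absolute log2 fold change above 1.5 they numbered 4, 0, 1, 0, 0, 2, 0 and 0 in the same order. The shares of all genes were 3.16%, 0.682%, 1.64%, 0.0953%, 0.109%, 1.85%, 0.122% and 0.0122%. The members' shares were 1.66% for niraparib and 0.415% for niraparib against olaparib in WT cells, and 0.83% for the niraparib interaction. At this threshold the members' shares thus lay below those of all genes. RLE size factors kept every count within 1.5-fold. For niraparib in PARP1 KO cells, DESeq2 called 1 member and so did edgeR with no filter, ZNF331 in both. The count for the genotypes with DMSO was 0 with filterByExpr, with the replicate block and with only the libraries compared. The replicate block gave 0 members for olaparib against DMSO and 1 for niraparib against olaparib in PARP1 KO cells, and left the other counts within 1.5-fold. Same-numbered libraries did not pair: 5 of 18 correlations of their deviations were over 0.1 (range -0.61 to 0.62), and 7 of 36 were best with the own number.

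Leaving out 1 library gave 67 to 70 members for niraparib and 15 to 18 for olaparib against DMSO in WT cells, 38 to 56 for niraparib against olaparib there, 64 to 84 for the niraparib interaction, 0 to 0 for niraparib in PARP1 KO cells and 0 to 0 for the genotypes with DMSO. The olaparib interaction gave 3 without PARP1 KO olaparib replicate 2 or WT olaparib replicate 1 and 11 without PARP1 KO olaparib replicate 1. In PARP1 KO cells the range was 0 to 2 for olaparib against DMSO, with 2 without PARP1 KO olaparib replicate 3, and 0 to 3 for niraparib against olaparib, with 0 without PARP1 KO niraparib replicate 2, 3 without PARP1 KO olaparib replicate 3 and 1 without PARP1 KO olaparib replicate 1, PARP1 KO olaparib replicate 2 or PARP1 KO niraparib replicate 1. The uncalled ZNF224 and ZNF417 with niraparib in WT cells changed sign without single WT libraries, over -0.21 to 0.17 and -0.11 to 0.042. Over the alternatives other than the 2 thresholds, 737 values of named members kept direction and side of the threshold, 51 lost the call, 4 gained it and 6 changed sign. The causes were not tested. The members' median stayed within 0.35 to 0.40 for niraparib in WT cells. Depth limits members under 1 CPM.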
